A study of Mus musculus with 39 samples.

Results

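The oxidative phosphorylation subunits were followed through 39 RNA-seq libraries of mouse breast tumors that carried 1 of 2 forms of the receptor HER2. Members were the rows of the deposited expression table whose gene symbol names a nuclear-encoded subunit, that is, symbols that begin with Ndufa, Ndufb, Ndufc, Ndufs or Ndufv plus a digit, with Uqcr, with Atp5 or with Cox4 to Cox8, and the genes Sdha, Sdhb, Sdhc, Sdhd, Cyc1 and Cycs. This rule took 86 of the 20520 genes of the table, of which 36 belong to complex I, 4 to complex II, 9 to complex III, 19 to complex IV and 17 to complex V, and the last, Cycs, encodes cytochrome c. Ndufa4 and its paralog Ndufa4l2 were counted with complex IV. The rule reads gene symbols only, but it was set with earlier results of these data known. The subunits that the mitochondrial genome encodes are not covered by the rule and were not analysed here.

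Oxidative phosphorylation couples the oxidation of NADH and succinate to the synthesis of ATP in the inner mitochondrial membrane. Complexes I and II pass electrons to ubiquinone, complex III passes them on to cytochrome c and complex IV to oxygen, and complex V uses the proton gradient built on the way to make ATP. Several complex IV subunits have isoforms, and in rodents Cox6a2, Cox7a1 and Cox8b encode the forms of heart and skeletal muscle while Cox6a1, Cox7a2 and Cox8a encode the common forms found in most tissues.

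The tumors were PB2 mouse breast tumors with FL-HER2, full-length HER2, or p95HER2, a truncated HER2 that lacks most of the extracellular part, and they were taken 10 or 22 days after implantation. Day 10 was covered by 10 libraries of each construct, and day 22 by 9 of FL-HER2 and 10 of p95HER2. All groups share the PB2 background, and no tumor without a HER2 construct was among the libraries. The host strain, the promoter behind the constructs and whether a library is 1 tumor or a pool are not stated in the labels, so p-values measure the spread between these libraries.

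Libraries held 21772259 to 44427621 reads on genes (34009091 ± 3708309, SD, n = 39), so 1 CPM, a count scaled to the library's total, stood for at least 21.8 reads. Tests used the deposited log2 normalized counts, on which a log2 change is a difference of group means, and levels are given as CPM. Overlap between groups was likewise read on CPM and can differ on the deposited scale. The test covered the 13650 genes, 83 of them members, that reached 1 CPM in 9 libraries or more, and a gene counted as called when its limma p, adjusted by Benjamini-Hochberg, was under 0.05. The tumor cell markers Epcam, at 421 to 773 CPM over all libraries, and Krt8, at 459 to 752 CPM, were present throughout. In p95HER2 tumors 1 of the 8 tumor epithelium markers rose from day 10 to day 22 and 5 fell (all genes 16.6% and 18.6%). The riser was Epcam, with a log2 change of 0.25 ± 0.075 (SE, adjusted p = 0.00836). The libraries differed in RNA of neighbouring tissue. The 20 skeletal muscle markers took 0.0493% to 3.85% of reads in the FL-HER2 day 10 libraries, 0.0262% to 0.936% in the FL-HER2 day 22 libraries, 0.00353% to 1.05% in the p95HER2 day 10 libraries and 0.00129% to 0.606% in the p95HER2 day 22 libraries, and none of the 20 was at 0 in all libraries. Libraries with a high skin marker score, a mean log2 value of at least 6 over 4 tested skin genes, numbered 2, 1, 5 and 3 in the same order. Of other tissues rich in mitochondria, the 6 brown fat list genes summed to 3.18 to 8.92 CPM, with at most 0.0825 CPM of Ucp1 and at most 1.79 CPM of Cidea, and of the 4 tested 2 were lower and 1 higher in p95HER2 tumors at day 10. The 5 heart list genes, none of which was high enough to test, summed to 0 to 2.87 CPM, with at most 0.603 CPM of Myh6 and 0.183 CPM of Nppa. Their part in the results was not tested.

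Subunit transcripts made up about 1% of the library in all 4 groups. Members took 1.10% to 1.43% of reads in the FL-HER2 day 10 libraries (median 1.19%) and 0.887% to 1.23% in the p95HER2 day 10 libraries (median 1.04%). At day 22 they took 1.08% to 1.32% in the FL-HER2 libraries (median 1.22%) and 1.14% to 1.28% in the p95HER2 libraries (median 1.19%). The p95HER2 day 10 libraries were the lowest group, with 8 of 10 below all FL-HER2 day 10 libraries, and at day 22 the p95HER2 range lay inside the FL-HER2 range. As these are bulk samples, fewer cells of a type and less RNA per cell cannot be told apart in any of the values.

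**Figure D1:**
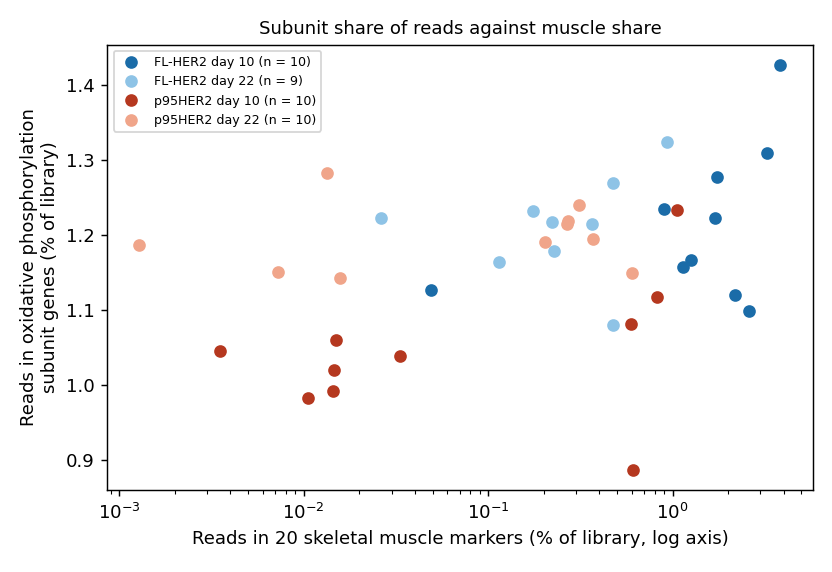
Percent of reads in the 86 oxidative phosphorylation subunit genes (vertical axis) against percent of reads in 20 skeletal muscle markers (horizontal log axis), 1 point per library, colored by group. The p95HER2 day 10 points sit lowest, between 0.887% and 1.23%, and the FL-HER2 day 10 points reach furthest to the right, up to 3.85% muscle reads.

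Levels per length of the principal transcript were highest for complexes IV and V. In the FL-HER2 day 10 libraries the median gene stood at 183 CPM per kb in complex V, 178 CPM per kb in complex IV and 149.8 CPM per kb in complex III, against 86.2 CPM per kb in complex I and 87.7 CPM per kb in complex II. The highest level per length was that of Atp5b, the catalytic beta subunit of ATP synthase, with 598 CPM per kb. Cycs, the electron carrier between complexes III and IV, had 30.6 CPM per kb. Medians per length were lower in the p95HER2 day 10 group in each complex, with 70.3 CPM per kb in complex I, 154 CPM per kb in complex IV and 164 CPM per kb in complex V. Members too low to test were Cox6b2, the testis form of subunit 6b, at 0 to 0.681 CPM, Cox7b2, at 0 except for at most 0.0295 CPM in the FL-HER2 day 10 group, and Ndufb4c, annotated as a processed pseudogene, at 0.0908 to 0.702 CPM.

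The isoform pairs of complex IV separate muscle from other tissue, and the start regions of 2 pairs are shown here because the muscle-type members varied most between libraries. They are RefSeq windows of the GRCm38.p6 assembly, from 250 bases before to 50 bases after the gene's start, written 5′ to 3′ on the gene's strand. Capitals mark matches on either strand to 3 motifs. CAGCTG is an E-box, the kind of site that muscle regulatory factors bind. The TATA box was searched as TATAAAA. For ETS factors the motif was CCGGAAG, which reads CTTCCGG on the opposite strand. Cox8b lies at chr7:140900397-140900696 (minus strand), Cox8a at chr19:7217567-7217866 (minus strand), Cox7a1 at chr7:30183921-30184220 (plus strand) and Cox7a2 at chr9:79759804-79760103 (minus strand).
Cox8b: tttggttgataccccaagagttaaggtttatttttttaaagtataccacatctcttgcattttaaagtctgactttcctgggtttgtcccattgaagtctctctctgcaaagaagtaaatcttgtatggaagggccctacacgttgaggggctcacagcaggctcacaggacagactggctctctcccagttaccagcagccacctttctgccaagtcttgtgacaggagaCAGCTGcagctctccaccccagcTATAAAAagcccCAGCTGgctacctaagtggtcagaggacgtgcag
Cox8a: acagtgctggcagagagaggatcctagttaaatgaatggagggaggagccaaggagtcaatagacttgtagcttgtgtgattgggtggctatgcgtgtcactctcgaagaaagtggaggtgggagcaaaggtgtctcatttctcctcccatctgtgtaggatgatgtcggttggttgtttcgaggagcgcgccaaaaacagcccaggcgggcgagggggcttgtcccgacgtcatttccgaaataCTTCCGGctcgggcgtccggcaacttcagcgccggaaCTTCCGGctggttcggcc
Cox7a1: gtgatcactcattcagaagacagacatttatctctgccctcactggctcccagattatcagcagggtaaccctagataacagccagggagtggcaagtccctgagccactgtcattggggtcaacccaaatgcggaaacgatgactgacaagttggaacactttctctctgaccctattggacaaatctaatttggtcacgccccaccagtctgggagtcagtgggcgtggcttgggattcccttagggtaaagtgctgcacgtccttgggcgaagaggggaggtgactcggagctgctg
Cox7a2: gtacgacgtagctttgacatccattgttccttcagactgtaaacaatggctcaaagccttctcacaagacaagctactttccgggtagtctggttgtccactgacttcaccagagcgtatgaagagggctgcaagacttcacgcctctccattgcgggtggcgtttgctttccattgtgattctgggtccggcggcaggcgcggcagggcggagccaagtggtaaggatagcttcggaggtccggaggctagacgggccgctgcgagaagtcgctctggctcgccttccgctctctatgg
The Cox8b window held 2 CAGCTG and 1 TATAAAA, the Cox8a window held 2 CCGGAAG matches, and neither Cox7a window held any of these letters. Among the 67 members with a window, CAGCTG was found in 6 (8.96%, against 18.3% of 27025 genes) and TATAAAA in 3 (4.48%, against 6.39%). CCGGAAG was found in 16 (23.9%, against 9.93%), and GCGCATG, part of the palindrome bound by the respiratory gene regulator NRF1, in 14 (20.9%, against 4.41%). The median GC content was 57.3% in the members' windows and 52.8% over all windows, and its part in these shares was not tested. The palindrome counts on both strands, and Cox6a1 held 1 CCGGAAG and 2 such overlapping matches. A match is only a description of the letters, and no match says nothing about a factor. Among those not matched by symbol were Atp5a1, Atp5f1, Atp5mpl, Atp5s, Cox4i1, Cox4i2, Cox6a2, Cox6c, Cyc1, Ndufa2, Ndufa4l2, Ndufb4c, Ndufb9, Ndufs1, Sdhc, Uqcrb, Uqcrc2 and Uqcrq.

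The muscle-type isoforms were the members that varied most between libraries. Cox6a2 stood at 1.90 to 143 CPM (median 60.7) in the FL-HER2 day 10 libraries, 0.869 to 27.9 CPM (median 6.78) at FL-HER2 day 22, 0.0649 to 38.5 CPM (median 1.26) at p95HER2 day 10 and 0.0845 to 16.7 CPM (median 5.95) at p95HER2 day 22. The FL-HER2 day 10 libraries were high except replicate 10, and the groups overlapped. Cox8b followed the same order, with medians of 16.1, 2.48, 0.456 and 1.86 CPM, and Cox7a1 had medians of 9.26, 2.14, 0.778 and 1.73 CPM in the same order of groups. Ranges of both overlapped between all groups as well. The common partners were far less spread. Cox6a1 had medians of 276, 286, 236 and 283 CPM, Cox7a2 of 119, 125, 106 and 123 CPM, and Cox8a of 218, 221, 203 and 225 CPM.

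**Figure D2:**
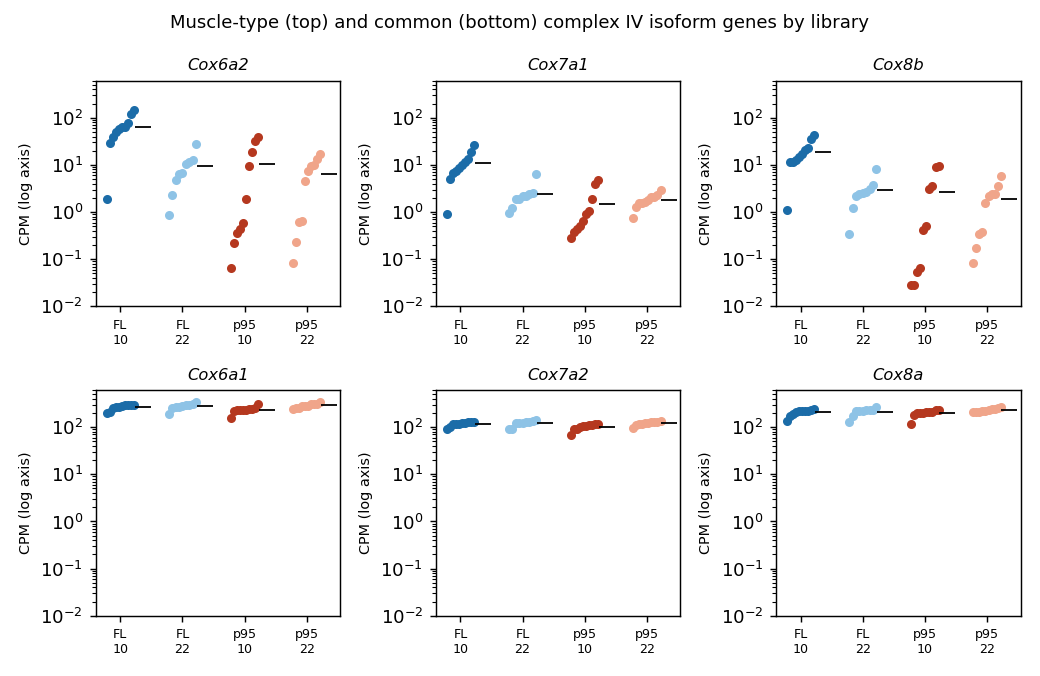
CPM (log axis) of the muscle-type isoform genes Cox6a2, Cox7a1 and Cox8b (top) and their common partners Cox6a1, Cox7a2 and Cox8a (bottom) in each library, sorted within group, with a bar at the group mean. The muscle-type genes run from under 0.1 to 143 CPM, while the common genes stay between 67.4 and 342 CPM.

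Per length, the muscle-type form made up a minor part of each pair. Cox6a2 was a median 15.3% of the Cox6a pair in the FL-HER2 day 10 libraries and 2.05%, 0.446% and 1.73% in the FL-HER2 day 22, p95HER2 day 10 and p95HER2 day 22 libraries. Cox7a1 was 12.1% of the Cox7a pair in the FL-HER2 day 10 libraries and 3.14%, 1.22% and 2.56% in the others, and Cox8b 11.0% of the Cox8 pair and then 1.62%, 0.361% and 1.21%. In p95HER2 against FL-HER2 tumors at day 10, Cox8b changed by -4.58 ± 0.87 (log2, SE; adjusted p = 6.77e-05), Cox6a2 by -4.50 ± 1.02 (adjusted p = 0.000544) and Cox7a1 by -3.14 ± 0.47 (adjusted p = 1.68e-06). All 20 of the skeletal muscle markers were lower in the same comparison, with a median log2 change of -4.36. With the muscle share of reads as a covariate, a choice made after seeing the data, the 3 isoforms were no longer called. They stood at -1.43 (adjusted p = 0.33), -0.86 (adjusted p = 0.66) and -1.02 (adjusted p = 0.071). With the mean log2 score of the 20 muscle markers as the covariate, Cox7a1 was still lower, at -1.83 (adjusted p = 0.000711). Cox6a2 was not called in that fit, at -0.48 (adjusted p = 0.116), and the value of Cox8b in it is not given here.

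At day 10 nearly all subunit genes were lower in p95HER2 than in FL-HER2 tumors, by a modest amount that was alike across the complexes. Of the 83 tested members 79 were lower and 1 was higher, where 26.1% of all tested genes were lower and 15.2% higher (41.3% in either direction). The median log2 change of the members was -0.30, a level of 0.811 times that in FL-HER2 tumors, against -0.041 over all genes. Across 5 scalings, which move the median of all genes by up to 0.11 here, the members' median stood at -0.26 to -0.34 relative to it. Lower were 34 of 35 tested members of complex I, 4 of 4 of complex II, 9 of 9 of complex III, Cycs, 15 of 17 of complex IV and 16 of 17 of complex V. Medians by complex ran from -0.25 in complex II to -0.32 in complex IV. Outside the muscle-type isoforms, single changes ran from -0.84 to 0.15.

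**Figure D3:**
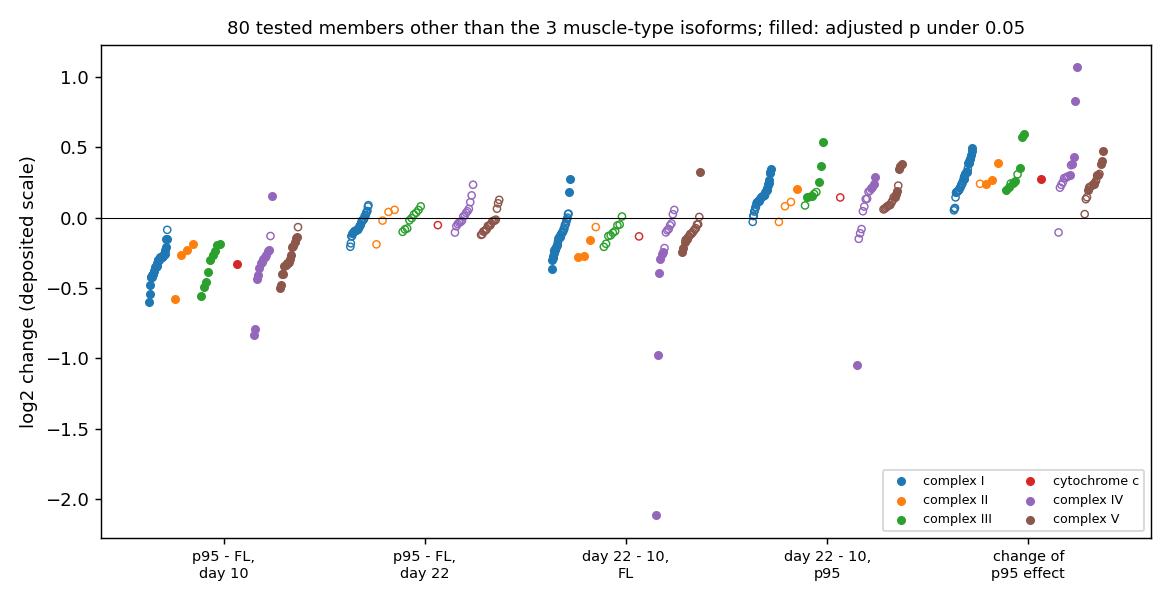
Log2 change of the 80 tested members other than the 3 muscle-type isoforms in the 5 comparisons, by complex (color), filled where the adjusted p was under 0.05. At day 10 all but Cox7a2l lie below 0, at day 22 no point is filled, and the last column, the change of the p95HER2 effect from day 10 to day 22, lies above 0 for all but Cox7a2l.

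In complex I, Ndufb8, an accessory subunit of the membrane arm, stood at 126 to 168 CPM (median 135) in FL-HER2 and 101 to 131 CPM (median 111) in p95HER2 tumors at day 10, and the groups overlapped only at their edges. Its log2 change was -0.38 ± 0.060 (adjusted p = 4.57e-06). The accessory subunit Ndufb9 changed by -0.42 ± 0.070 (adjusted p = 9.00e-06). Of the catalytic core subunits, Ndufv1, which binds NADH, changed by -0.26 ± 0.057 (adjusted p = 0.00045) and Ndufs1 by -0.15 ± 0.046 (adjusted p = 0.00819).

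Complex II, which is also an enzyme of the citric acid cycle, was lower in all 4 subunits. Sdhb, its iron-sulfur subunit, stood at 70.2 to 123 CPM (median 90.2) in FL-HER2 and 53.8 to 84.8 CPM (median 61.8) in p95HER2 tumors at day 10. The highest p95HER2 library, replicate 1, lay within the FL-HER2 range and the next, at 70.3 CPM, at its lower edge. The log2 change of Sdhb was -0.58 ± 0.091 (adjusted p = 4.08e-06), that of the flavoprotein Sdha -0.26 ± 0.043 (adjusted p = 6.80e-06), and those of the membrane anchors Sdhc and Sdhd -0.23 and -0.19.

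Complex III held the member with the smallest adjusted p. Cyc1, the cytochrome that hands electrons to cytochrome c, stood at 189 to 208 CPM (median 194) in FL-HER2 and 148 to 179.8 CPM (median 172) in p95HER2 tumors at day 10, and the groups did not overlap. Its log2 change was -0.27 ± 0.035 (adjusted p = 2.74e-07). The Rieske iron-sulfur protein gene Uqcrfs1 changed by -0.24 ± 0.051 (adjusted p = 0.000331) and the core subunit gene Uqcrc1 by -0.30 ± 0.055 (adjusted p = 4.03e-05). Cycs, which stood at 81.9 to 111 CPM (median 91.8) and 65.7 to 91.5 CPM (median 78.8), changed by -0.33 ± 0.067 (adjusted p = 0.000158).

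In complex IV the common isoforms did not all pass the test. Cox4i1, the common form of the regulatory subunit 4, changed by -0.29 ± 0.074 (adjusted p = 0.00166), Cox5a by -0.32 ± 0.090 (adjusted p = 0.00499) and Ndufa4 by -0.41 ± 0.089 (adjusted p = 0.000366), whereas Cox8a was at -0.13 ± 0.10 (adjusted p = 0.319). The member that was higher was Cox7a2l, which joins complexes III and IV in supercomplexes. It stood at 119 to 149 CPM (median 135) in FL-HER2 and 150.02 to 169 CPM (median 156) in p95HER2 tumors, without overlap in CPM. On the deposited scale the groups overlapped, and its log2 change was 0.15 ± 0.041 (adjusted p = 0.00369). Outside the muscle-type isoforms the widest changes were those of Ndufa4l2 (-0.84 ± 0.17, adjusted p = 0.000187) and Cox4i2 (-0.79 ± 0.17, adjusted p = 0.000335), both known as isoforms induced by low oxygen.

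Complex V was lower in its catalytic and stalk subunits and uneven in its ring. Atp5a1 and Atp5b, the alpha and beta subunits, changed by -0.20 ± 0.043 (adjusted p = 0.000257) and -0.14 ± 0.043 (adjusted p = 0.0106). Atp5j, a peripheral stalk subunit, stood at 130.3 to 168 CPM (median 145) in FL-HER2 and 82.9 to 137 CPM (median 109) in p95HER2 tumors and changed by -0.48 ± 0.068 (adjusted p = 7.48e-07), with overlap through the highest p95HER2 library. Atp5g1, Atp5g2 and Atp5g3 encode the same mature c-ring protein. They changed by -0.50 ± 0.079 (adjusted p = 4.97e-06), -0.068 ± 0.062 (adjusted p = 0.392) and -0.26 ± 0.067 (adjusted p = 0.00174). Atp5g2 stood at 68.5 to 97.8 CPM in FL-HER2 and 63.5 to 94.0 CPM in p95HER2 tumors, ranges that nearly coincide, and the differences between the 3 genes' changes were not tested.

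**Figure D4:**
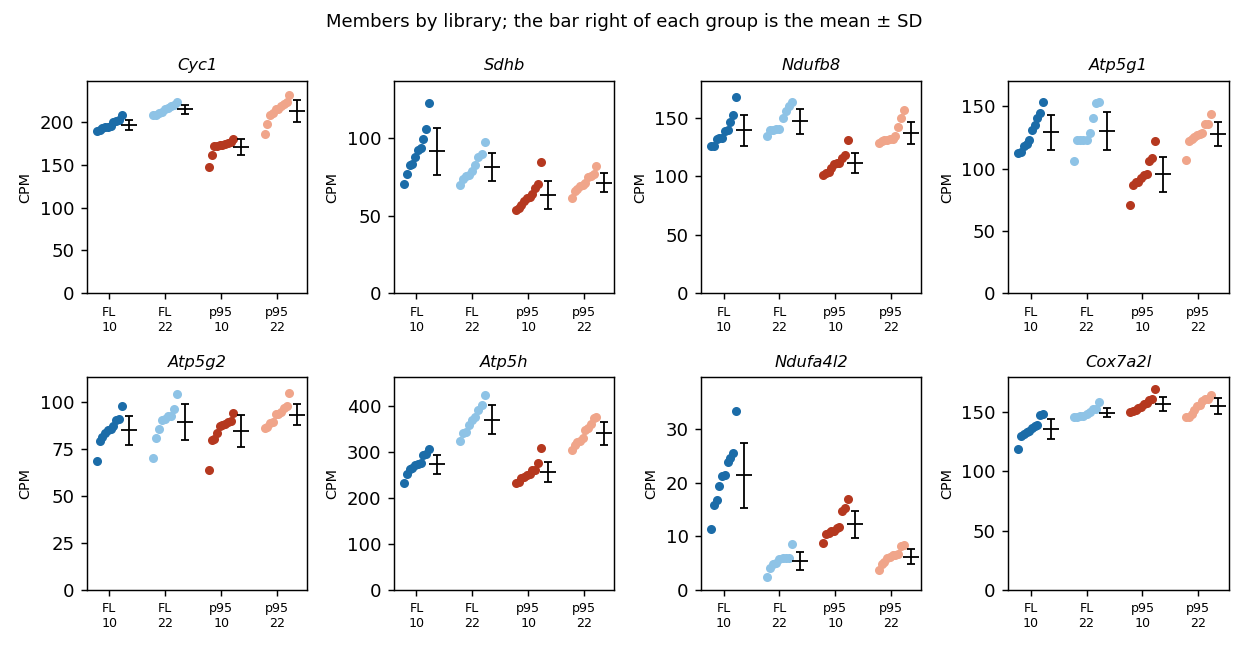
CPM of 8 members in each library (points, sorted within group; FL, FL-HER2; p95, p95HER2; 10 and 22, days), with the group mean ± SD as a bar to the right (n = 10, 9, 10 and 10 libraries). Cyc1 shows the p95HER2 day 10 libraries below all FL-HER2 day 10 libraries, Atp5g2 shows overlapping groups, Atp5h rises to day 22 in both constructs and Ndufa4l2 falls in both.

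Markers of several other cell types moved with the day 10 difference. Beside the muscle markers, 7 of 9 fibroblast, 7 of 8 macrophage, 6 of 6 endothelial and 4 of 7 tested adipocyte markers were lower in p95HER2 tumors. Of all tested genes 26.1% were lower. None of 5 tested T cell and 4 tested skin markers was called, and of 8 tumor epithelium markers 1 was higher and 1 lower. The higher was Erbb2 (0.85 ± 0.10, adjusted p = 6.64e-08), the gene of HER2 itself. Whether reads of the constructs count toward it was not tested. With the mean log2 muscle score as a covariate 40 members were lower and 1 higher (15.9% and 7.96% of all genes), and with the muscle share of reads, a covariate chosen after seeing the data, 2 were lower and 2 higher (9.36% and 5.62% of all genes). In the latter fit 77 of 83 members were still below 0, with a median of -0.092. Cyc1 (-0.19, adjusted p = 0.00352) and Atp5j (-0.26, adjusted p = 0.0172) were lower, and Cox7a2l (0.26, adjusted p = 0.000375) was among the higher. In the 7 day 10 libraries whose muscle share lay between 0.1% and 1.3%, of which 3 were FL-HER2, no member was lower and 1 was higher (2.78% and 1.91% of all genes), while 80 of 83 were below 0 with a median of -0.17, against -0.30 over all libraries. Tumor numbers are 5 digits long in 8 FL-HER2 libraries of day 10 and 3 digits long in all others, and with a term for this 5 members were lower and 1 higher (6.18% and 3.89% of all genes), a fit that sets the p95HER2 libraries against the other 2. In that fit too 80 of 83 members were below 0, with a median of -0.21. The parts of the fibroblast, macrophage, endothelial and adipocyte RNA in the result were not tested.

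**Figure D5:**
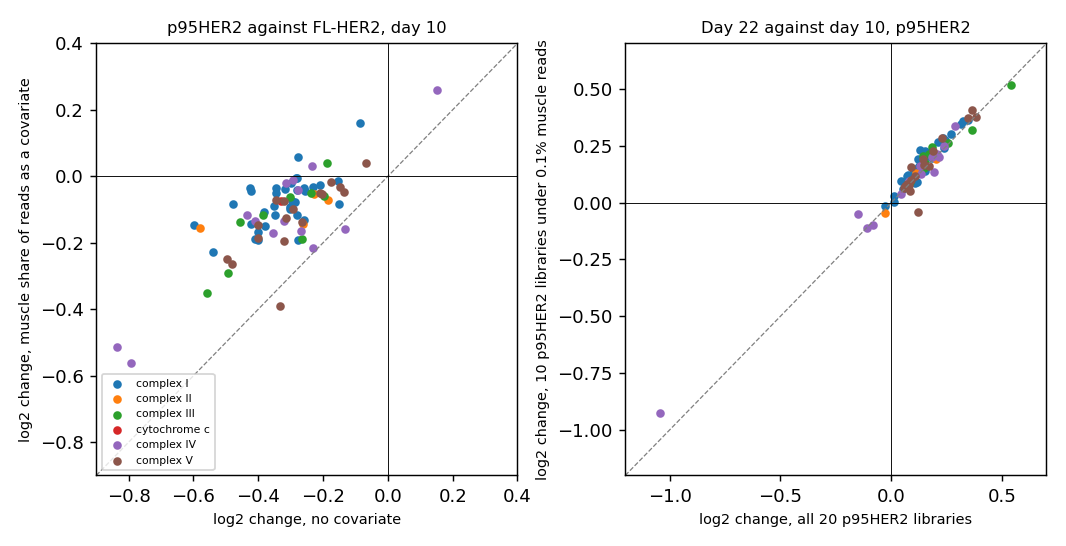
Log2 change of the 80 tested members other than the muscle-type isoforms in the fit over all libraries (horizontal) against another setting (vertical), with the line of equal values dashed. Left, p95HER2 against FL-HER2 at day 10 with the muscle share of reads as a covariate, where most points lie closer to 0 than without it; right, day 22 against day 10 in p95HER2 tumors in the 10 libraries under 0.1% muscle reads, where points lie close to the line.

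At day 22 no subunit gene passed the test between the constructs. None of 83 members was called by limma in either direction, where 4.52% of all genes were called, and 4 members had an unadjusted p under 0.05. The same count was 0 with log2(CPM + 1) and with voom, at 6 unadjusted each. The median log2 change of the members was -0.041, against -0.0069 over all genes, and outside the muscle-type isoforms changes ran from -0.21 to 0.23. Cyc1 stood at 208 to 223 CPM (median 214) in FL-HER2 and 186 to 231 CPM (median 215) in p95HER2 tumors, with a log2 change of -0.020 ± 0.036 (adjusted p = 0.836). The p95HER2 range enclosed the FL-HER2 range. In Cox6a2, Cox7a1 and Cox8b the changes were -1.35 ± 1.05, -0.30 ± 0.48 and -1.13 ± 0.90, and 0 of 20 skeletal muscle markers were called. All 20 of these markers were below 0, with a median log2 change of -1.78. In the libraries under 0.1% muscle reads 4 members were lower and 1 higher (3.29% and 5.93% of all genes), a fit that sets 4 p95HER2 libraries against 1 FL-HER2 library and takes the spread of that lone library from the other groups.

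From day 10 to day 22 in FL-HER2 tumors the isoforms known for muscle and low oxygen fell most, and 3 members rose. Over all 83 members 25 fell and 3 rose, where 30.6% of all tested genes fell and 20.7% rose, so the share of members called was below that of all genes. With log2(CPM + 1) 8 fell and 7 rose (21.6% and 35.9% of all genes). With the term for the digits of the tumor number, which sets the day 22 libraries against the 2 FL-HER2 day 10 libraries with 3 digits, 2 fell and 2 rose (14% and 7.6% of all genes) and the median log2 change was -0.019. The median log2 change was -0.13 against -0.033 over all genes, and across 5 scalings, with a shift of the same size, the members' median lay 0.087 to 0.13 below that of all genes.

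Ndufa4l2 stood at 11.4 to 33.4 CPM (median 21.3) at day 10 and 2.45 to 8.59 CPM (median 5.66) at day 22 in FL-HER2 tumors, without overlap. Its log2 change was -2.11 ± 0.18 (adjusted p = 1.88e-12). Cox4i2 fell by 0.98 ± 0.18 on the log2 scale (adjusted p = 1.65e-05), Cox6a2 by 2.92 ± 1.05 (adjusted p = 0.0188), Cox8b by 2.76 ± 0.90 (adjusted p = 0.00983) and Cox7a1 by 2.09 ± 0.48 (adjusted p = 0.0004). With the digit term Ndufa4l2 (adjusted p = 0.000182) and Cox4i2 (adjusted p = 0.0154) were still called, and Cox6a2 (adjusted p = 0.215), Cox8b (adjusted p = 0.181) and Cox7a1 (adjusted p = 0.0746) were not. Atp5h, a peripheral stalk subunit of ATP synthase, rose from 234 to 306 CPM (median 273) at day 10 to 325 to 424 CPM (median 371) at day 22. The groups did not overlap in CPM but did on the deposited scale, where its log2 change was 0.32 ± 0.059 (adjusted p = 1.96e-05). The complex I accessory subunits Ndufa10 and Ndufc2 rose by 0.18 ± 0.050 (adjusted p = 0.00258) and 0.27 ± 0.087 (adjusted p = 0.0091). Smaller falls on the deposited scale included Cox5a (-0.39, adjusted p = 0.00058), Ndufb9 (-0.30, adjusted p = 0.000721), Sdhd (-0.27, adjusted p = 0.000983), Sdha (-0.16, adjusted p = 0.0023) and Atp5b (-0.17, adjusted p = 0.00121). Under log2(CPM + 1) Cox5a and Ndufb9 stayed called and Sdhd, Sdha and Atp5b did not, and under quantile normalization Atp5b was at 0.023. In FL-HER2 tumors 7 of 20 skeletal muscle markers were called as falling with time, near the 30.6% of all tested genes. All 20 were below 0, with a median log2 change of -2.64. Of the other markers 9 of 9 fibroblast, 6 of 6 endothelial, 5 of 8 macrophage and 5 of 8 tumor epithelium markers fell. All 5 tested T cell markers rose, against 20.7% of all genes. The part of the cell types other than muscle in the result was not tested. With the muscle share of reads as a covariate 12 members rose and 2 fell (9.89% and 17.6% of all genes).

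In p95HER2 tumors 25 of 83 subunit genes rose from day 10 to day 22, 1 fell and 57 did not pass the test, where 16.6% of all tested genes were higher and 18.6% lower. Without the skin-high libraries, which leaves 5 and 7 p95HER2 libraries, 7 members were higher and 1 lower (11.8% and 13.9% of all genes) and the median log2 change was 0.12. Over all libraries the median log2 change was 0.14, a level 1.11 times that of day 10, against 0.0016 over all genes, and 77 of 83 changes were above 0. Higher were 10 members of complex I, 1 of complex II, 5 of complex III, 3 of complex IV and 6 of complex V. No skeletal muscle marker was called in this comparison, in which 8 of 9 fibroblast markers fell.

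Cyc1 rose from 148 to 179.8 CPM (median 172) at day 10 to 186 to 231 CPM (median 215) at day 22, without overlap in CPM. On the deposited scale the groups overlapped slightly, and its log2 change was 0.25 ± 0.035 (adjusted p = 3.06e-07). In FL-HER2 tumors its change was 0.0078 ± 0.036 (adjusted p = 0.874) on the deposited scale and 0.13 (adjusted p = 0.00208) with log2(CPM + 1). Atp5h rose from 232 to 308 CPM (median 252) to 304 to 378 CPM (median 340.1), with overlap through replicate 1 of day 10, and changed by 0.35 ± 0.057 (adjusted p = 6.14e-06). Ndufa10 and Ndufc2 rose here as well, by 0.24 ± 0.048 (adjusted p = 0.000102) and 0.32 ± 0.085 (adjusted p = 0.00257). Atp5g1 rose by 0.36 ± 0.079 (adjusted p = 0.000325), Ndufb8 by 0.23 ± 0.060 (adjusted p = 0.00211) and Sdhc by 0.20 ± 0.066 (adjusted p = 0.0151). The widest rise, named after its value was seen, was that of Uqcr10, a small subunit of complex III, at 30.02 to 71.1 CPM (median 58.3) on day 10 and 71.6 to 97.0 CPM (median 85.3) on day 22. The groups did not overlap in CPM but did on the deposited scale, where its log2 change was 0.54 ± 0.12 (adjusted p = 0.00031). The single fall was that of Ndufa4l2, from 8.65 to 17.0 CPM to 3.77 to 8.31 CPM, without overlap (-1.05 ± 0.17, adjusted p = 6.01e-06).

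The number of members that rose in p95HER2 tumors varied with the libraries taken. In the libraries with 0.1% to 1.3% muscle reads 5 members were higher and 1 lower (10.4% and 12.8% of all genes), with a median log2 change of 0.072. Of the p95HER2 libraries, 6 at day 10 and 4 at day 22 had under 0.1% muscle reads, a selection chosen after seeing the data, and in them members took 0.983% to 1.06% and 1.14% to 1.28% of reads, without overlap. In this fit 28 members were higher and 1 lower (10.5% and 13.5% of all genes), 24 of the 25 risers of the full fit among them, and the median log2 change was 0.16. Skin scores were high in 5 of these 6 libraries at day 10 and in 2 of these 4 at day 22. With the skin score as a covariate 20 were higher and 1 lower (16.4% and 19% of all genes). Replicate 1 of p95HER2 day 10 had the highest member share of its group, and without it 42 members were called.

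The p95HER2 effect on many subunit genes differed between the days. In the test of the difference itself, the p95HER2 effect at day 22 minus that at day 10, 34 of 83 members were called, all higher, against 13.5% higher and 6.2% lower among all genes. The median was 0.27 against 0.040 over all genes. Called were 9 members of complex I, 3 of complex II, 7 of complex III, Cycs, 7 of complex IV and 7 of complex V. Cyc1 differed by 0.25 ± 0.051 (adjusted p = 0.000871), Ndufb9 by 0.44 ± 0.10 (adjusted p = 0.00201), Atp5g1 by 0.47 ± 0.11 (adjusted p = 0.00347), Atp5j by 0.40 ± 0.098 (adjusted p = 0.00393), Sdha by 0.24 ± 0.061 (adjusted p = 0.00519) and Ndufa4l2 by 1.07 ± 0.25 (adjusted p = 0.00237). Atp5h, Ndufa10 and Ndufc2, which rose in both constructs, were not called here, at 0.025 ± 0.082, 0.063 ± 0.069 and 0.052 ± 0.12. With the muscle share of reads as a covariate 1 member was higher and 1 lower (5.32% and 2.28% of all genes), and among libraries with a muscle share of 0.1% to 1.3% none was called (1.12% of all genes; 4 members at an unadjusted p under 0.05). With the digit term none was called (1.71% of all genes), with a median of 0.16 and 7 members at an unadjusted p under 0.05. In the same contrast 6 of 6 endothelial, 6 of 9 fibroblast and 2 of 8 tumor epithelium markers were called, all higher. Their part in the result was not tested. Without replicate 1 of p95HER2 day 10 the count of members was 57.

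Within groups, members tended to be higher in libraries with more muscle RNA. In a fit of each gene on the mean log2 score of the 20 muscle markers beside the groups, 31 of 83 members had a positive slope at an adjusted p under 0.05 and none a negative slope, where 9.38% of all genes had a positive and 7.15% a negative slope. The slope, in log2 units of the member per log2 unit of the score, was 0.91 ± 0.027 for Cox6a2, 0.71 ± 0.055 for Cox8b and 0.30 ± 0.049 for Cox7a1. It was 0.044 ± 0.011 for Sdhb (adjusted p = 0.00701), 0.033 ± 0.0095 for Cox4i1 (adjusted p = 0.0148) and 0.0017 ± 0.0053 for Cyc1 (adjusted p = 0.857). The count rested on few libraries, with 9 without FL-HER2 day 10 replicate 10, 12 without p95HER2 day 10 replicate 1 and 52 without p95HER2 day 10 replicate 5, and 6 without the skin-high libraries.

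Other mitochondrial genes moved with the subunits at day 10, to differing extents, in the fit over all libraries without a covariate. How these lists change with the muscle covariates, the muscle-limited libraries or the digit term was not examined. Of 43 tested assembly factor genes 23 were lower in p95HER2 tumors and none higher (median log2 change -0.18), of 16 citric acid cycle genes 14 were lower (median -0.19), of 15 tested fatty acid oxidation genes 12 were lower (median -0.24) and of 78 mitochondrial ribosome genes 32 were lower (median -0.14), with none higher in any of these lists, where 26.1% of all tested genes were lower. Ogdh and Idh3a, dehydrogenases of the citric acid cycle, changed by -0.32 ± 0.061 (adjusted p = 6.79e-05) and -0.19 ± 0.037 (adjusted p = 7.66e-05), while Cs, which encodes citrate synthase, was at -0.031 ± 0.049 (adjusted p = 0.642). Of 13 tested regulators of mitochondrial gene expression 2 were lower and 2 higher (26.1% and 15.2% of all genes). The higher were Gabpb1 (0.20 ± 0.047, adjusted p = 0.00083) and Yy1 (0.17 ± 0.041, adjusted p = 0.00124). Tfb1m was lower (-0.39 ± 0.092, adjusted p = 0.000947). Esrrg, a nuclear receptor that drives oxidative metabolism genes in muscle and heart, was lower by -0.64 ± 0.12 (adjusted p = 4.70e-05), and the coactivator gene Ppargc1a was not called at -0.30 ± 0.14 (adjusted p = 0.0713).

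From day 10 to day 22 in p95HER2 tumors 11 of 43 assembly factors were higher and 3 lower, 28 of 78 mitochondrial ribosome genes higher and 1 lower, 5 of 16 citric acid cycle genes higher and 2 lower, and 4 of 15 fatty acid oxidation genes higher and 4 lower, where 16.6% of all tested genes were higher and 18.6% lower. In FL-HER2 tumors 12 of 15 fatty acid oxidation genes fell and none rose, 9 of 16 citric acid cycle genes fell and 1 rose, 7 of 43 assembly factors fell and 3 rose, and 5 of 78 mitochondrial ribosome genes fell and 12 rose, where 30.6% of all tested genes fell and 20.7% rose. Esrrg rose in both constructs, by 0.55 ± 0.12 in FL-HER2 (adjusted p = 0.000246) and by 1.35 ± 0.12 in p95HER2 tumors (adjusted p = 8.68e-12). Of the 13 tested regulators 4 rose over time in FL-HER2 tumors and none fell, and in p95HER2 tumors 2 rose and 1 fell. Beside Esrrg, Polrmt rose in both, by 0.16 (adjusted p = 0.0359) and 0.20 (adjusted p = 0.0126). Gabpb1 rose in FL-HER2 tumors (0.22, adjusted p = 0.000254). Yy1 rose in FL-HER2 (0.10, adjusted p = 0.0442) and fell in p95HER2 tumors (-0.13, adjusted p = 0.0143). Nrf1, Tfam and Esrra, which encode regulators of respiratory gene transcription, were not called at day 10 or over time in either construct.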

How the data were processed

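Poly(A) RNA was sequenced from 39 tumor libraries with a directional kit, per the labels' protocols. Per the submitters' processing notes the authors aligned to mm10 with STAR 2.4.2a and used DESeq2. The labels name no read counter or strand setting. The authors deposited log2 values, log2(read count / size factor + 1), although the table is named for CPM: 100.0% of the values were whole reads after undoing the log2 and the size factor (tolerance 0.001 reads). CPM was computed from these reads. The depth of each library is at least 21772259 reads, and counting error weighs most on members near or below 1 CPM, such as Cox4i2 and, in some libraries, Cox8b.

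The deposited values were fitted in R 4.3.3 with limma 3.58.1 (a linear model per gene, moderated with a mean-variance trend, two-sided), with 1 coefficient per group over all 39 libraries, for 5 contrasts. The fit was run on simulated counts with known changes in the p95HER2 day 10 group, for the day 10 contrast only. These counts held no differences in tissue content between libraries, so the check does not cover that limit. Tested genes reached 1 CPM in 9 libraries or more, and p-values were Benjamini-Hochberg adjusted over 13650 genes per contrast at a threshold of 0.05. The plan had assumed CPM, and the log2 values were used instead. The 86 members and all gene lists were chosen with earlier results of these data known. Named genes are the isoform partners, fixed core subunits, the called member of each complex with the smallest adjusted p per contrast, the largest called change outside the muscle types, and members called against the majority. Of the genes taken by this rule 1 is not reported here. Alternatives were a filter at 5 CPM or none, pseudocounts of 0.1 and 5, TMM and median-of-ratios factors, quantile normalization, log2(CPM + 1), voom, only the groups compared, the muscle score as a covariate, muscle-limited libraries (0.1% to 1.3% muscle reads), no skin-high libraries, a term for the digits of the tumor number, and leaving out each library. The muscle share and the skin score as covariates and the libraries under 0.1% muscle reads were added after seeing the data.

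Replicate numbers were given in record order, so they do not pair libraries. Replicate 8 of FL-HER2 day 10 has a tumor number in its title that is not the one in its description, and its column was matched by the latter. No 2 libraries had identical values (0 pairs). Gene lengths are those of the principal transcript in GENCODE for 85 of the 86 members, on GRCm38, the assembly behind mm10. Start regions come from RefSeq on GRCm38.p6 and matched 67 members by symbol. Near-identical copies, such as the c-ring genes and the processed pseudogenes of many subunits, can share or lose reads in the counting, so their levels are uncertain.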

Additional observations from a re-analysis of the deposited data

Results flagged for a closer look

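Values far from the rest of their group, by a gap to the nearest library that passed Dixon's 95% limit for the group's range, were found in 15 of 172 tests within a group, made on the CPM of each named gene and on the shares of reads in all members and in each complex, where chance gives about 1 in 20. In p95HER2 day 10 a low library gave 67.4 CPM of Cox7a2, 117 CPM of Cox8a, 87.8 CPM of Cox6b1, 63.5 CPM of Atp5g2, 200 CPM of Atp5g3 and 74.4 CPM of Sdhd, each time replicate 5, the library with the lowest share of reads in members. A high library of the same group gave 278 CPM of Sdha, in replicate 4, and 136 CPM of Ndufa10, in replicate 1. In FL-HER2 day 22 a high library gave 27.9 CPM of Cox6a2, 6.34 CPM of Cox7a1 and 7.99 CPM of Cox8b, and a low library 103 CPM of Ndufb9. In FL-HER2 day 10 a high library gave 461 CPM of Cox4i1, and in p95HER2 day 22 a high library gave 164 CPM of Ndufs1. The flag for 0.0295 CPM of Cox7b2 in FL-HER2 day 10 carries no information. Every other library had no Cox7b2 read, so any read in 1 library of a group would be flagged. The groups without a Cox7b2 read could not be flagged but are among the 172 tests.

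The p95HER2 effect differed between day 22 and day 10, by the interaction term of limma, in 34 members. Among the named genes the difference (log2, day 22 effect minus day 10 effect) was 3.45 for Cox8b, 2.84 for Cox7a1, 1.07 for Ndufa4l2 and 0.83 for Cox4i2. It was 0.47 for Atp5g1, 0.44 for Ndufb9, 0.43 for Cox6b1, 0.40 for Atp5j, 0.39 for Sdhb, 0.38 for Ndufa4 and 0.30 for Cox4i1. It was 0.28 for Cycs, 0.27 for Ndufb8, 0.27 for Sdhc, 0.26 for Uqcrfs1, 0.25 for Cyc1, 0.24 for Sdha, 0.24 for Atp5b and 0.22 for Uqcrc1.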

How the results depend on the processing

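At day 10 the 80 members called became 41 with the muscle score, 4 with the muscle share of reads, 6 with the digit term, 1 in muscle-limited libraries and 0 in libraries under 0.1% muscle reads, where a single FL-HER2 library was left and 9 members had an unadjusted p under 0.05. At day 22 the 0 became 5 in the last, again with 1 FL-HER2 library. The 28 called over time in FL-HER2 became 18 with quantile normalization, 15 with log2(CPM + 1), 15 with voom, 16 with the muscle score, 14 with the muscle share, 7 in muscle-limited libraries, 4 with the digit term and 4 under 0.1%. The 26 called over time in p95HER2 became 44 with quantile normalization, 52 with log2(CPM + 1), 52 with voom, 44 with the muscle share, 6 in muscle-limited libraries and 8 without skin-high libraries. The 34 called for the change between days became 14 with the muscle score, 2 with the muscle share, 15 without skin-high libraries, and 0 in muscle-limited libraries, with the digit term or under 0.1% (4, 7 and 11 members had an unadjusted p under 0.05). The 31 positive slopes became 13 with log2(CPM + 1), 13 with voom and 6 without skin-high libraries. Leaving out 1 library gave 71 to 80 at day 10, 0 to 0 at day 22, 22 to 41 and 20 to 42 over time in FL-HER2 and p95HER2, 24 to 57 for the change and 9 to 52 for the slope. Signs of named genes over time in FL-HER2 reversed with the muscle share for Cox6a2 (0.68), Cox7a1 (0.015), Cox8b (0.35), Cox4i1 (0.022), Ndufa4 (0.028), Ndufv1 (0.070), Sdhb (0.14), Ndufb8 (0.19) and Atp5j (0.0023), in libraries under 0.1%, where 1 FL-HER2 library stands against 1 and each is assumed to vary like the other groups, for Cox7a1 (1.01), Ndufv1 (0.33), Sdhb (0.33), Atp5b (0.061), Atp5j (0.017) and Ndufb9 (0.023), with the digit term for Ndufv1 (0.014), and with quantile normalization for Atp5a1 (0.092) and Atp5b (0.023). At day 10 the sign reversed for Cox5a under 0.1% (0.00093), and for the change under 0.1% for Sdhb (-0.20), Uqcrc1 (-0.13) and Ndufb8 (-0.10) and with the muscle share for Uqcrc1 (-0.00061). Over all genes, calls at day 10 split into 2071 higher and 3565 lower, and with quantile normalization into 3908 and 2256, with log2(CPM + 1) into 2915 and 2741. Over time in FL-HER2 the split of 2830 and 4181 became 5002 and 3002 with quantile normalization, and the median of all genes moved from -0.033 to 0.081. The causes were not tested. Of the other results for named genes 2477 kept their side of the threshold and direction, 381 lost the call and 54 gained it, outside the fits that leave out 1 library. The skin score as a covariate, the pseudocounts and the filters moved no count of members called by over 1.5 times. The quasi-likelihood count test was not run, since the deposited unit is log2. No paired analysis was possible because the replicate numbers only follow the order of the records.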
